A study of Mus musculus with 6 samples.

Results

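Glypicans, syndecans and agrin are the cell-surface and matrix proteins that carry heparan sulfate chains, and the 10 genes described here are Gpc1, Gpc2, Gpc3, Gpc4, Gpc6, Sdc1, Sdc2, Sdc3, Sdc4 and Agrn. They were taken by gene symbol from the 23038 genes measured in each library. RNA-seq was done on primary oligodendrocyte precursor cells (OPCs), immunopanned from mouse embryos and cultured, that had been transfected with control siRNAs (siNC, 3 libraries) or with siRNAs against Qk (siQk, 3 libraries) and collected 72 h later. Qk encodes the RNA-binding protein Qki, and the comparison asks how transcript levels differ once Qk is depleted. The siQk libraries came from different siRNAs against the same gene, and which siRNA belongs to which siQk library is not stated in the sources used here. All 6 libraries were cell cultures of the same type with no gene deleted. They were bulk libraries, so fewer cells of a type and less RNA per cell cannot be told apart.

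Glypicans are tethered to the outer leaflet of the membrane by a lipid anchor, syndecans cross the membrane and end in a short cytoplasmic tail, and agrin is secreted into the extracellular matrix. The heparan sulfate chains on these core proteins bind growth factors, morphogens and guidance cues and present them to their receptors, and the sulfation pattern of the chains sets which ligands are held. OPCs depend on heparan sulfate-binding factors of the platelet-derived and fibroblast growth factor families for proliferation, and agrin is best known for assembling the neuromuscular junction through the receptor Lrp4 and for binding dystroglycan.

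In the GENCODE M21 annotation of mm10 the glypican genes lie at chr1:92831645-92860779 (Gpc1, Entrez gene 14733), chr5:138273655-138280005 (Gpc2, 71951), chrX:52272426-52613950 (Gpc3, 14734), chrX:52053021-52165252 (Gpc4, 14735) and chr14:116925315-117976544 (Gpc6, 23888). The syndecan genes lie at chr12:8771323-8793715 (Sdc1, 20969), chr15:32920723-33034935 (Sdc2, 15529), chr4:130792537-130826319 (Sdc3, 20970) and chr2:164424247-164443887 (Sdc4, 20971). Agrn (11603) lies at chr4:156165290-156197488. The levels below are sums over the exons of each whole gene.

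All coordinates are in mm10, and the sequences were read from the genome with the GENCODE M21 annotation. The syndecans share the last residues of the cytoplasmic tail, which bind PDZ-domain proteins. The last 30 coding bases and the stop codon of each syndecan are printed with the final 12 coding bases in capitals.
Sdc1, chr12:8791775-8791807, plus strand: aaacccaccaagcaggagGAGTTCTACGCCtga
Sdc2, chr15:33032508-33032540, plus strand: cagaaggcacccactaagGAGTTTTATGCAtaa
Sdc3, chr4:130822777-130822809, plus strand: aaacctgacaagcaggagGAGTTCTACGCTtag
Sdc4, chr2:164426086-164426118, minus strand: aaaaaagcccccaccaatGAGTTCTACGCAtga
Of the 30 coding bases, 26 were identical between Sdc1 and Sdc3 and 22 between Sdc2 and Sdc4, against 13 to 17 in the other pairs. In the capitalised stretch, every pair shared 9 to 11 of 12 bases.

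Agrn holds short alternative exons near its 3′ end, among them the exons that give neural agrin its ability to cluster acetylcholine receptors. They are printed because the measured level is the sum over the gene and does not separate transcripts with and without them. Each exon is in 1 of the 4 annotated coding transcripts and is numbered here in Agrn-203, which has 38 exons and lies on the minus strand of chromosome 4.
Exon 30, chr4:156169546-156169557, 12 nt: AAATCCCGCAAG
Exon 34, chr4:156168546-156168569, 24 nt: CGAGCTGACCAATGAGATCCCAGC
Exon 35, chr4:156167777-156167809, 33 nt: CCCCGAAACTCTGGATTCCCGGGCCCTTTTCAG

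The 3′ untranslated regions were searched on the sense strand for the core motif bound by Qki, ACTAAC or ACTAAT, and 3 of the 10 members held a match, 1 each. Each is shown in a window of 30 bases with the motif in capitals.
Gpc2, chr5:138273850-138273879, minus strand: tgagagttagggACTAATaaagctaggtgc
Gpc3, chrX:52388048-52388077, minus strand: caacatttgacaACTAATcatatccgaaga
Agrn, chr4:156165330-156165359, minus strand: tggtatcttgttACTAACtcagtatgtgtc
The match began at base 443 of 655 in Gpc2, base 40 of 441 in Gpc3 and base 1149 of 1206 in Agrn. Among the 11825 tested genes with an annotated 3′ untranslated region of at least 50 nt, 36.1% held at least 1 match, against 30% of the members. Among genes with a 3′ untranslated region of similar length (within 10%), 18.6% of 601 genes held a match for Gpc2, 13.3% of 444 for Gpc3 and 30.1% of 869 for Agrn. Sdc4 had no match in 1839 nt, a length at which 44.5% of 974 genes had one. Sdc3, Sdc2, Gpc1, Sdc1, Gpc6 and Gpc4 had none either. At their lengths, 65.2%, 52.2%, 49.2%, 46.1%, 34.6% and 14.7% of genes had one, in that order. A match is a description of the letters only and does not show that Qki bound there.

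The libraries held 58166490 to 132085937 assigned tags in siNC and 82701288 to 141045937 in siQk. Levels are given as RPKM, tags per unit of exon length and of library total, and fold changes as the fitted log2 ratio of siQk to siNC after scaling each library to its composition. A gene was called changed where edgeR's quasi-likelihood test returned P under 0.01 and the FDR after Benjamini-Hochberg adjustment was under 0.1. Qk itself was at 209, 206 and 163 RPKM in the siNC libraries and 51.3, 76.6 and 36.2 in the siQk libraries, a log2 fold change of -1.98 (SE 0.28, FDR = 0.00311), so the labels match the target in every library. Cell type markers moved as well: the summed RPKM of 10 myelin and mature oligodendrocyte markers was 3308 to 5825 in siNC and 1363 to 2065 in siQk, with 8 of 10 called lower. That of 10 OPC markers was 1059 to 1140 and 1278 to 1436, with 4 called higher and 1 lower. The summed microglia list stayed at or below 3.34 RPKM and the fibroblast and vascular list at or below 0.621 in every library, with C1qa, C1qb and Cldn5 at 0. The summed astrocyte list overlapped between the groups, at 295 to 416 RPKM in siNC and 293 to 317 in siQk, but 4 of its 8 tested genes were called lower and 1 higher, with a median log2 fold change of -0.73. Gfap went from 69.1 to 9.85 RPKM, and Aldh1l1, Slc1a3 and Slc1a2 fell by 2.21, 1.38 and 1.06 on the log2 scale, while Sox9 rose by 0.42. S100b (140 RPKM in siNC) and Aldoc (94.9) were not called, and Gja1 was at or below 0.013. The summed neuron list was at 203 to 284 and 217 to 266 RPKM, with 3 of 9 tested genes called higher, none lower, and a median of 0.61. Of all tested genes, 31.0% were called, 17.2% lower and 13.8% higher. The share called was 33.3% for the neuron list, near that of all genes. It was 80% for the myelin list, 62.5% for the astrocyte list and 50% for the OPC list. Snap25 went from 0.751 to 5.18 RPKM, Nefl from 1.88 to 6.36 and Map2 from 58.8 to 96.8, while Tubb3 (123 RPKM in siNC) was not called and Stmn2 was at or below 0.0439. P2ry12 was the 1 microglia gene tested and was called lower, from 1.69 to 0.208 RPKM. In every siQk library P2ry12 (50, 36 and 85 tags) was below the limit of the expression filter, a log2 CPM of 0. It thus passed through the siNC libraries, where it was higher. The same held for Mal, among the myelin markers called lower. The library siNC 1 stood apart in its Rn45s ribosomal precursor, 3.11% of tags against 0.169% to 0.389% in the others.

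All 10 members passed the expression filter, an average log2 CPM above 0, with the lowest average, 0.51, for Sdc4. In every siQk library Sdc4 was below that limit, so it passed through the siNC libraries, where it was higher. Gpc2 rose and Sdc4 and Agrn fell in the siQk cells, while 7 members did not pass the test. That is 3 of 10 called (30%), where 31.0% of the 12505 tested genes were called, 17.2% lower and 13.8% higher. The share of members called was near that of all genes. The median log2 fold change was -0.19 over the members and 0.01 over all tested genes. The siNC and siQk ranges of RPKM did not overlap for 5 members, Gpc2, Gpc3, Sdc3, Sdc4 and Agrn, and for 58.3% of all tested genes. With 3 libraries a group, an exact permutation test of a single gene cannot go below p = 0.1.

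**Figure D1:**
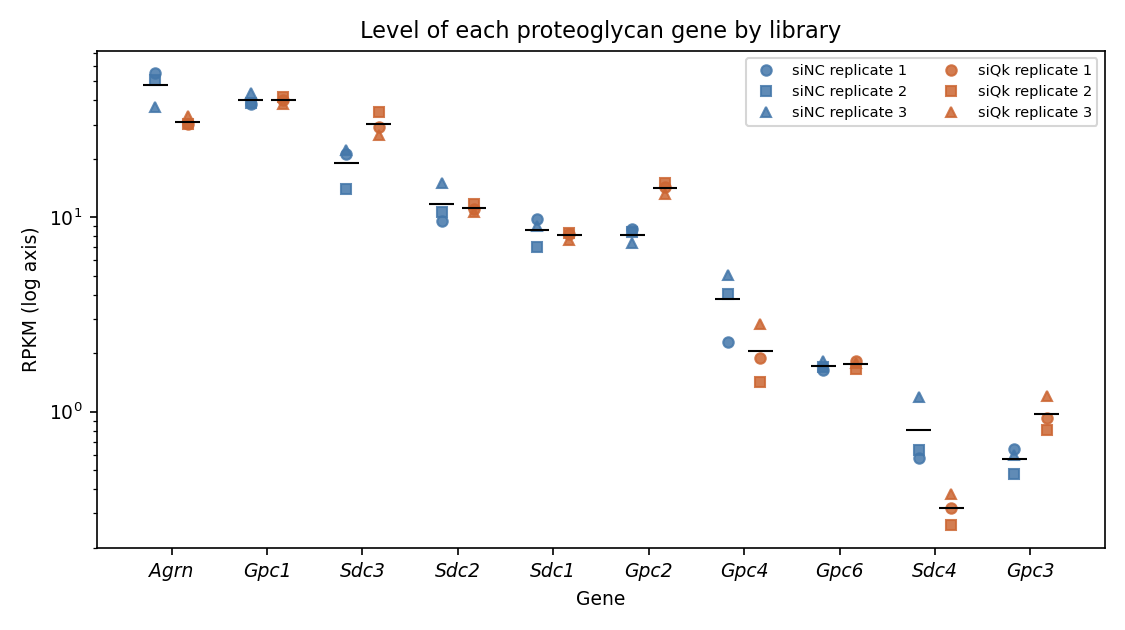
RPKM of each of the 10 genes in the 3 siNC and 3 siQk libraries, on a log axis, with points for libraries (shape by replicate number) and a line at the group mean, genes ordered by the siNC mean. Gpc2, Gpc3 and Sdc3 sit higher in every siQk library than in any siNC library, and Sdc4 and Agrn lower. Ranges that do not overlap were found for 58.3% of all tested genes. Gpc1 and Gpc6 lie at nearly the same level in both groups.

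Among the glypicans, Gpc2, a glypican known from developing axons, was the member called higher. It was at 8.68, 8.40 and 7.37 RPKM in siNC and 14.3, 15.04 and 13.2 in siQk. The groups did not overlap, and the siQk libraries lay close to each other. The log2 fold change was 0.64 (SE 0.11, FDR = 0.00538). On the RPKM scale the siQk mean, 14.2 ± 0.948 (SD, n = 3), was 174% of the siNC mean of 8.15 ± 0.686, and the fitted fold was 1.56. In GENCODE M21, 2376 of the 4274 exonic bases of Gpc2 are shared with Gm43720 on the same strand. Reads over that stretch could come from either gene. The annotation used for counting was not given, so how such reads were counted is not known.

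Gpc1, the most abundant glypican here, was at 38.3, 39.0 and 43.7 RPKM in siNC and 40.2, 41.5 and 38.4 in siQk. The siQk values all lay inside the siNC range. The log2 fold change was -0.16 (SE 0.060, FDR = 0.0746), and the gene missed the limit on P. Part of its sequence, 977 of 5159 exonic bases, overlaps the antisense gene Ankmy1, and the libraries did not mark strand. Gpc6 was as even, at 1.64, 1.70 and 1.83 RPKM in siNC and 1.81, 1.67 and 1.77 in siQk. Its log2 fold change was -0.13 (SE 0.080, FDR = 0.247).

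Gpc3 and Gpc4 lie in the same stretch of the X chromosome, and neither was called. Gpc4, which supports synapse formation when released by astrocytes, was at 2.27, 4.03 and 5.08 RPKM in siNC and 1.90, 1.42 and 2.81 in siQk. The lowest siNC library fell inside the siQk range. Its log2 fold change of -1.03 (SE 0.33, FDR = 0.0499) missed the limit on P. Gpc3, mutated in an overgrowth syndrome and a modulator of Hedgehog signalling, was at 0.640, 0.476 and 0.600 RPKM in siNC and 0.930, 0.802 and 1.2 in siQk. All siQk libraries were above all siNC libraries, but the log2 fold change of 0.63 (SE 0.22, FDR = 0.065) missed the limit on P.

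Among the syndecans, Sdc4 was the member called lower. Sdc4 is the syndecan of focal adhesions and was the least abundant one here, at 0.580, 0.635 and 1.19 RPKM in siNC (83, 173 and 387 tags) and 0.320, 0.261 and 0.379 in siQk (111, 53 and 118 tags). The groups did not overlap, and siNC 3 stood well above the other siNC libraries. The log2 fold change was -1.46 (SE 0.31, FDR = 0.0122), a fitted level of 36.2% of siNC. Without siQk 2, P was just past its limit, at a log2 fold change of -1.34 (FDR = 0.0471).

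Sdc3, the syndecan most typical of neural tissue, was the most abundant one in both groups. It was at 21.1, 13.9 and 22.1 RPKM in siNC and 29.2, 34.7 and 26.6 in siQk. Every siQk library was above every siNC library. The log2 fold change of 0.51 (SE 0.19, FDR = 0.0751) missed the limit on P. Of its 5989 exonic bases, 463 overlap the antisense genes Gm12970 and Gm26716. Sdc1, best known from epithelia and plasma cells, was at 9.78, 7.03 and 9.01 RPKM in siNC and 8.25, 8.35 and 7.62 in siQk. Its log2 fold change was -0.25 (SE 0.14, FDR = 0.211). Sdc2, a mesenchymal and neuronal syndecan, was at 9.56, 10.7 and 15.01 RPKM in siNC and 11.1, 11.7 and 10.7 in siQk, and the fitted change was -0.22 (SE 0.14, FDR = 0.253). For both, the siQk values lay inside the siNC range.

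Agrn, the matrix member, fell. It was at 55.1, 51.2 and 37.1 RPKM in siNC and 30.1, 30.1 and 33.1 in siQk. The ranges did not overlap, and siNC 3 lay much nearer to the siQk libraries than the other siNC libraries did. The log2 fold change was -0.78 (SE 0.17, FDR = 0.0141), a fitted level of 58.2% of siNC, against 65.0% from the means of RPKM, 47.8 ± 9.42 and 31.1 ± 1.71 (SD, n = 3 each). The myelin marker sum was also lowest among the siNC libraries in siNC 3, at 3308, and higher in all of them than in the siQk libraries. Of 8 tested astrocyte markers, 4 were called lower in siQk, 1 was called higher and 3 were not called. The summed astrocyte list was highest among the siNC libraries in siNC 3, at 416 RPKM, against 370 in siNC 1 and 295 in siNC 2. The part of these markers' cell types in the lower Agrn level was not tested. The call rested on siNC 2, siQk 1 and siQk 2. Leaving out any of them took P just past its limit, with an FDR of 0.0366, 0.0571 and 0.0553 and log2 fold changes of -0.75, -0.76 and -0.75.

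**Figure D2:**
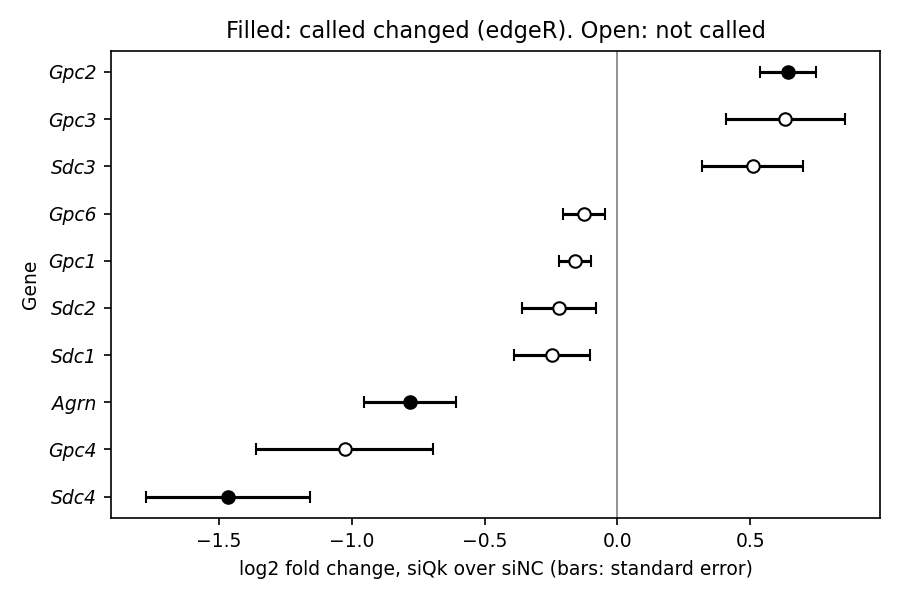
Fitted log2 fold change of siQk over siNC for each of the 10 genes, with bars of 1 SE and called genes marked. Gpc2 is the called gene above 0, at 0.64, and Sdc4 (-1.46) and Agrn (-0.78) are the called genes below it.

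The order of the 10 genes by RPKM differed between the groups at the top. In siNC, Agrn and Gpc1 had overlapping ranges and stood above all others. Sdc3, Sdc2, Sdc1 and Gpc2 followed with each overlapping its neighbour, then Gpc4 and Gpc6, and Sdc4 and Gpc3 overlapped at the bottom. In siQk, Gpc1 stood alone at the top, Agrn and Sdc3 overlapped below it, and Gpc2, Sdc2 and Sdc1 followed apart from each other. Gpc4 and Gpc6 overlapped, and Gpc3 lay above Sdc4.

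Summed over the 10 genes, the level was 142.6 ± 5.31 RPKM in siNC and 139.8 ± 5.09 in siQk (SD, n = 3), with overlapping ranges. Divided by the composition scaling of the fit, the sums were 164, 142 and 145 in siNC and 131, 136 and 130 in siQk, and did not overlap, so whether the ranges of the sum overlap depends on the scaling. The shares within a library are free of that scaling. Agrin made up 37.3%, 37.3% and 26.0% of the summed RPKM in siNC and 21.8%, 20.7% and 24.4% in siQk. The glypicans made up 34.9%, 39.1% and 40.9% in siNC and 42.8%, 41.5% and 42.3% in siQk, and the syndecans 27.8%, 23.6% and 33.1% and then 35.4%, 37.8% and 33.4%. Every siQk library thus had a lower agrin share and higher shares of both other families than any siNC library. The shares of a library add up to its whole, so a lower agrin share by itself raises the others. In RPKM the other families overlapped between the groups. The glypicans were at 51.5 to 58.6 in siNC and 57.4 to 60.4 in siQk, and the syndecans at 32.3 to 47.3 and 45.3 to 55.1. The ratio of Sdc3 to Agrn RPKM was 0.383, 0.272 and 0.596 in siNC and 0.969, 1.16 and 0.805 in siQk. Within the syndecans, Sdc3 took 43.1% to 51.4% in siNC and 58.7% to 63.1% in siQk, and within the glypicans Gpc1 took 72.7% to 74.6% and 67.0% to 68.6%.

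**Figure D3:**
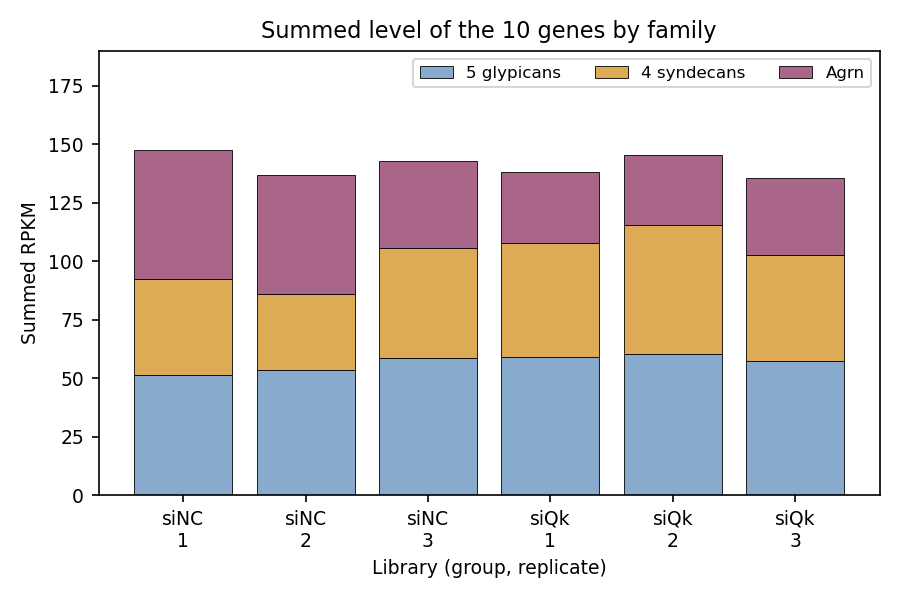
Summed RPKM of the 5 glypicans, the 4 syndecans and agrin, stacked for each library. The totals run from 135.7 to 147.6 RPKM, and the agrin part is 26.0% or more of the total in every siNC library and 24.4% or less in every siQk library.

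The rest of the heparan sulfate pathway was described with 10 lists of 100 genes in all, of which 77 were tested. Of these, 26 were called (33.8%, beside 31.0% of all tested genes), with 19 lower and 7 higher. Their median on the log2 scale was -0.15.

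Among 7 tested core proteins outside the members, Cd44 and Hspg2 fell and 5 did not pass. Cd44, a hyaluronan receptor that can carry heparan sulfate as a splice variant, was at 16.6, 17.3 and 17.4 RPKM in siNC and 5.82, 4.30 and 5.64 in siQk, a log2 fold change of -1.85 (SE 0.13, FDR = 0.000446). Hspg2, perlecan of basement membranes, went from 2.63 ± 0.513 to 1.82 ± 0.187 RPKM (log2 fold change -0.69, FDR = 0.0189).

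Of the enzymes that build the chains, none of the 7 linkage enzymes was called. Of 4 polymerisation enzymes, Extl2 and Extl3 fell, by 0.32 and 0.39 on the log2 scale, and Ext1 and Ext2, which extend the chain, did not pass. Of 10 tested sulfation and epimerisation enzymes, Ndst1, Hs6st2 and Hs3st3b1 fell. Ndst1, which starts the sulfation of the chain, was at 55.8, 59.1 and 50.4 RPKM in siNC and 28.1, 30.4 and 30.1 in siQk (log2 fold change -1.05, SE 0.092, FDR = 0.000884). The 6-O-sulfotransferase Hs6st2 fell from 1.30 to 0.816 RPKM and the 3-O-sulfotransferase Hs3st3b1 from 2.79 to 1.27, log2 fold changes of -0.82 and -1.28.

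Precursor supply moved both ways. Papss1, which makes the sulfate donor, fell from 126.8 ± 9.02 to 85.5 ± 2.19 RPKM (log2 fold change -0.72, FDR = 0.00256). Ugdh, which makes UDP-glucuronic acid, rose from 44.2 ± 7.14 to 79.9 ± 13.1 (0.71, FDR = 0.00916), and the nucleotide-sulfate transporter Slc35b3 rose from 6.39 to 9.70 (0.45). The remaining 2 tested genes of that list did not pass.

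Of 6 tested genes that edit or shed the proteoglycans outside the cell, 3 fell. The sheddases Adam17 and Adam10 went from 26.8 ± 1.56 to 15.2 ± 2.86 and from 73.2 ± 11.3 to 61.5 ± 5.32 RPKM (log2 fold changes -0.97 and -0.40), with overlapping RPKM ranges for Adam10. Gpld1, which cleaves lipid anchors such as those of glypicans, went from 6.29 to 5.57 (-0.32), also with overlapping ranges. The endosulfatase Sulf2, at 194, 135 and 148 RPKM in siNC and 158, 143 and 175 in siQk, was above every member in level and was not called. Of 8 lysosomal enzymes that break the chains down, Arsg fell (log2 fold change -0.94, FDR = 0.011) and 7 did not pass.

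**Figure D4:**
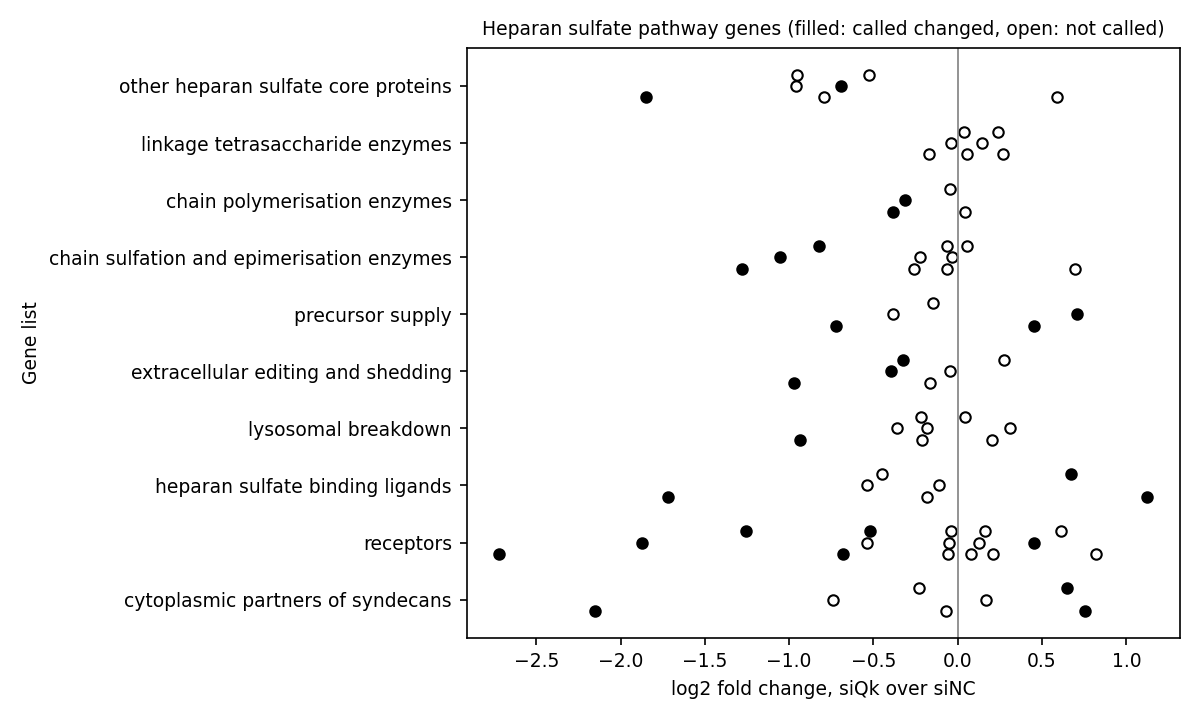
Fitted log2 fold change of siQk over siNC for every tested gene of the 10 pathway lists, 1 row per list, with called genes filled. Called genes lie on both sides of 0 among ligands, receptors, precursor supply and cytoplasmic partners, and on the lower side in 5 lists, with none called among the linkage enzymes.

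Among 7 tested ligands, Ptn and Slit1 rose and Hbegf fell. Ptn, pleiotrophin, a growth factor that binds syndecan 3, was at 168, 158 and 139 RPKM in siNC and 271, 274 and 282 in siQk (log2 fold change 0.67, SE 0.11, FDR = 0.00475). Slit1, a guidance cue, went from 0.214 to 0.518 RPKM and Hbegf, an epidermal growth factor receptor ligand, from 1.93 to 0.651, log2 fold changes of 1.12 and -1.72. Pdgfa and Fgf2 are mitogens of OPCs. Pdgfa averaged 47.4 RPKM in siNC and 49.1 in siQk and was not called, and Fgf2 was at or below 0.527 RPKM in every library.

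Of 16 tested receptors, 5 fell and 1 rose. Lrp4 and Dag1, receptors of agrin, were among those that fell. Lrp4 was at 21.2, 23.5 and 18.7 RPKM in siNC and 9.33, 9.85 and 10.4 in siQk (log2 fold change -1.25, SE 0.11, FDR = 0.000869). Dag1, dystroglycan, was at 42.5, 38.1 and 44.6 in siNC and 25.9, 31.4 and 29.5 in siQk (-0.68, SE 0.098, FDR = 0.00345). Agrn and both of these receptors were thus lower in every siQk library than in any siNC library. Ranges that did not overlap, in either direction, were found for 9 of the 16 tested receptors and for 58.3% of all tested genes. Musk, the kinase that Lrp4 activates in muscle, was at or below 0.0124 RPKM and was not tested. Met, the hepatocyte growth factor receptor, fell by 2.72 on the log2 scale, from 0.644 to 0.107 RPKM. In every siQk library Met (123, 46 and 112 tags) was below the limit of the expression filter. It thus passed through the siNC libraries, where it was higher. Robo2, a Slit receptor, fell by 1.87 from 14.7 RPKM, and Ptprf, a receptor phosphatase that binds heparan sulfate, by 0.52 from 34.4 RPKM. Fgfr1, which uses heparan sulfate as a co-receptor, rose from 15.4 ± 1.24 to 23.3 ± 1.65 RPKM (log2 fold change 0.45, FDR = 0.00492).

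**Figure D5:**
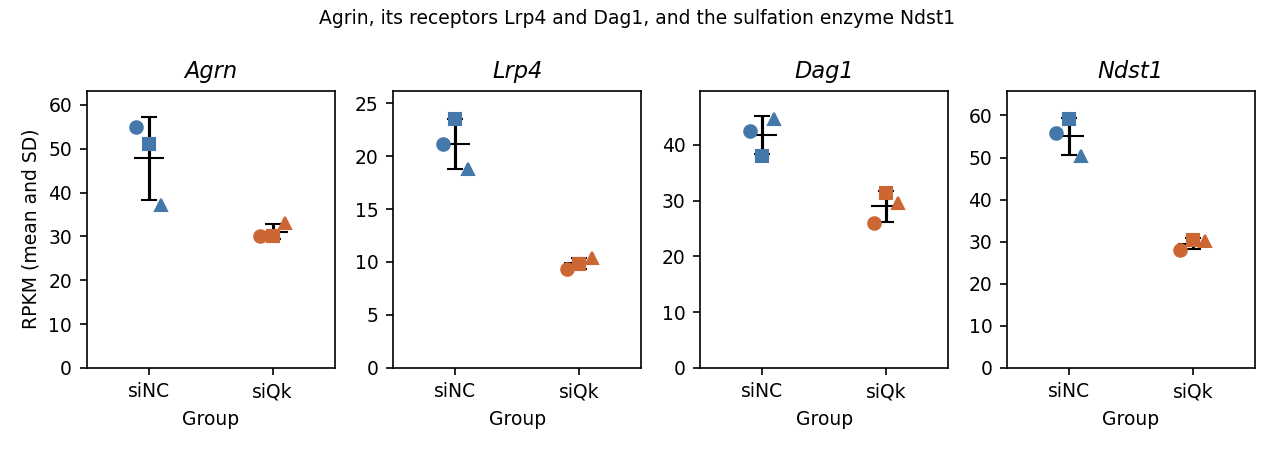
RPKM of Agrn, its receptors Lrp4 and Dag1, and the sulfation enzyme Ndst1 in each library, with the mean and SD; marker shapes stand for the replicate number and the axes start at 0. All 3 siQk values lie below all 3 siNC values in each panel. Ranges that do not overlap, in either direction, were found for 58.3% of all tested genes. The Agrn point of siNC 3, at 37.1, lies nearest to the siQk points.

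Of 7 tested proteins that act on the cytoplasmic side of syndecans, Ezr fell and Actn1 and Tiam1 rose. Ezr, ezrin, which links the membrane to actin, was at 22.1, 28.0 and 41.4 RPKM in siNC and 6.88, 8.996 and 6.88 in siQk (log2 fold change -2.15, SE 0.21, FDR = 0.00116). Actn1, an actin crosslinker that binds the syndecan 4 tail, went from 7.45 to 13.9 RPKM, and Tiam1, a Rac activator with a PDZ domain, from 3.70 to 6.42 (log2 fold changes 0.75 and 0.65). Sdcbp, syntenin, whose PDZ domains bind the C-terminal residues of syndecans, averaged 123.6 RPKM in siNC and 130.8 in siQk and was not called.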

How the data were processed

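Poly-A RNA from 6 cultures, 3 siNC and 3 siQk, was sequenced without strand marking. The authors used OLego for alignment to mm10 and Quantas for counting per gene, for which versions and annotation were not given in the sources used here. The deposited tables hold a tag number per gene, an estimated count that is not whole for part of the genes (among members, Agrn), the exon length, and the RPKM the authors derived from them. Labels call the samples biological replicates.

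Here tag numbers were rounded and genes with an average log2 CPM above 0 over all 23038 genes were kept (12505 genes). They were tested with edgeR 4.0.16 in R 4.3.3 (TMM scaling, quasi-likelihood F test, group as the only term), and called with the study's cutoffs, P under 0.01 and FDR (Benjamini-Hochberg) under 0.1. SE is the size of the log2 fold change over the square root of F. Alternatives were library size only, RLE or upper quartile scaling, DESeq2 1.42.0, filterByExpr or no expression filter, a replicate block, an FDR limit of 0.05 alone and leaving out each library. All 10 members, Qk and, in each pathway list, all called genes (up to 6 per list) were named. The marker genes given by name, and Ext1, Ext2, Sulf2, Pdgfa, Fgf2, Musk and Sdcbp were named after their values were seen. The members and lists were chosen with earlier results of these data known. Gene positions and sequences come from the mm10 assembly and GENCODE M21, and 2 list genes were matched by Entrez ID. Total tags per library set the counting precision, and the spread between replicates exceeded counting error in all pairs (chi-square per degree of freedom at least 36.3).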

Additional observations from a re-analysis of the deposited data

How the results depend on the processing

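The rise of Gpc2 was called under all 14 alternatives (log2 fold change 0.55 to 0.80). Without composition scaling (library size only) the median of all genes moved from 0.01 to 0.16, 1365 genes were called lower and 2989 higher, 31.4% of calls were lower against 55.4%, 5 members were called (Agrn, Gpc2, Gpc3, Sdc3, Sdc4), 3 of them higher, and Gpc6 reversed to 0.023. Upper quartile scaling gave 44.4% lower. Gpc4 was called with DESeq2 (FDR = 0.0074), at FDR below 0.05 alone, and without siNC 1 or siQk 3. Leaving out each library in turn gave 2478 to 3704 called genes, 1008 to 1610 of them higher, 1 to 4 members called, of which 0 to 3 lower, and 6 to 11 pathway genes higher; without siQk 2 only Gpc2 was called, and without siNC 2 Sdc1 was called and Agrn was not. Qk ranged from -2.29 to -1.76 under these. Divided by the scaling factors, the summed level was 150.5 in siNC and 132.6 in siQk. Same-numbered samples did not deviate together (correlations -0.0528, -0.152 and -0.34). Whether same-numbered cultures shared a preparation cannot be told from these correlations. With a replicate block 2796 genes were called, 2701 of them also called without it, and the same 3 members. Sdc4 rested on 53 to 387 tags a library. What caused each shift was not tested.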

Other observations

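Over the 6 libraries, the genes whose log2 CPM followed Gpc1 most closely were Rexo2, Nudt3 and Ndfip1, with Pearson r of 0.994, 0.992 and 0.992 among 10038 genes compared. Those that followed Sdc4 most closely were Zfp385c, Hspb11 and Tmem167, with 0.990, 0.990 and 0.989 among 10039 genes, and all of these were called lower, with log2 fold changes of -0.35, -0.38 and -0.40. These are descriptions over libraries that fall into 2 groups, so the values share the group difference.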
